A study of Mus musculus with 4 samples.

Results

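The genes of the proteasome, its activators, its inhibitor and its assembly factors were examined for peaks of methylated Pontin in mouse embryonic fibroblasts (MEFs) under glucose starvation. The members were the protein-coding genes of the GENCODE vM21 annotation whose symbol is Psma, Psmb, Psmc, Psmd, Psme, Psmf or Psmg followed by a digit, and the rule found 50 of 21938 protein-coding genes. They were divided by letter into 19 core genes (Psma and Psmb), 21 regulatory genes (Psmc and Psmd) and 10 activator, inhibitor or assembly genes (Psme, Psmf and Psmg). A gene was counted as having a peak when the centre of a peak lay within 2.5 kb of the transcription start site (TSS) of any of its transcripts.

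The series holds 4 ChIP-seq libraries from MEFs, fibroblasts grown from mouse embryos. These are chromatin immunoprecipitated with an antibody to arginine-methylated Pontin (mePontin) in normal media (mePontin_CTL) and under glucose starvation (mePontin_GS), and chromatin that was not immunoprecipitated (Input_CTL and Input_GS). The labels give no genotype, age or clone for the cells. With 1 library for each condition, the spread between cultures is not known, and starved cells were not compared with cells in normal media. The values come from the 4311 peaks, each 481 bp wide, that the authors called in mePontin_GS with 20765512 tags, of which 0.65% lay in peaks. The values of mePontin_CTL were not analysed here.

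The proteasome degrades proteins that carry ubiquitin chains. Its core is a barrel of stacked rings, in which alpha subunits form the outer rings and gate the entry, and beta subunits form the inner rings and hold the proteolytic sites. The regulatory particle caps the barrel. Its base contains a ring of ATPases that unfold the substrate, and its lid removes the ubiquitin chain. Other activators open the gate without ATP, and dedicated chaperones guide the assembly of both particles. Pontin (Ruvbl1) is an AAA+ ATPase of several chromatin remodelling complexes.

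The DNA under the peaks is shown for 7 genes with a peak, chosen to span the core, the regulatory particle, an activator and the inhibitor. Each sequence is the longest stretch outside annotated exons within the 200 bp around the peak centre, read 5′ to 3′ on the strand of the gene from the GRCm38 assembly, the build of the peak list. Capitals mark matches to the motifs described with the sequence results, which are the antioxidant response element form TGANNNNGC or its reverse complement in Psmb4, Psmb5, Psmc1 and Psmc5, and the ETS core CCGGAAG in Psme3.
Psmb4 (chr3:94886746-94886768, minus strand): gtgagtcGCGCTCTCAccgcgcc
Psmb5 (chr14:54617612-54617793, minus strand): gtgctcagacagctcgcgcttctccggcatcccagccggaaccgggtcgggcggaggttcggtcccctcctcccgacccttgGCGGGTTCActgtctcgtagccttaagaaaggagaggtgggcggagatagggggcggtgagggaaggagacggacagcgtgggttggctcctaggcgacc
Psmc1 (chr12:100110504-100110630, plus strand): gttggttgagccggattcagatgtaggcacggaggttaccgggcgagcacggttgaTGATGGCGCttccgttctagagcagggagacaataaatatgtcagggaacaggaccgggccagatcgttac
Psmc5 (chr11:106256215-106256377, plus strand): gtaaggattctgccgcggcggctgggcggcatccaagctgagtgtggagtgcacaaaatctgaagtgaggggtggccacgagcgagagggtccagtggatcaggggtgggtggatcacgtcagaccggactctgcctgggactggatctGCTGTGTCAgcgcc
Psmd14 (chr2:61711302-61711501, plus strand): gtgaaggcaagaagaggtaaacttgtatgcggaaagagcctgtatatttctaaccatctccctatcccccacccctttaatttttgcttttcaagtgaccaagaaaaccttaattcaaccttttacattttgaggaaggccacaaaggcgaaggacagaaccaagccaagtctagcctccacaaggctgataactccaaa
Psme3 (chr11:101315993-101316192, plus strand): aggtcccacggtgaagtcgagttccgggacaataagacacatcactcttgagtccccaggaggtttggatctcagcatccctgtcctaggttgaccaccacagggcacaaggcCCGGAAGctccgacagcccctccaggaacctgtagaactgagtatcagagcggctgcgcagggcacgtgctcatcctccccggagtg
Psmf1 (chr2:151741418-151741617, minus strand): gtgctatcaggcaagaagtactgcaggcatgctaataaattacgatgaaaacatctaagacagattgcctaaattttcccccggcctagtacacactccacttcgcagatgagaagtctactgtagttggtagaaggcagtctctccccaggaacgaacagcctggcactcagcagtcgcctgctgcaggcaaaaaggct
The stretch of Psmb4 is 23 bases long because annotated exons cover the rest of the 200 bp, and it has a GC content of 73.9%. The stretch of Psmd14 has 43.0% GC and 2 CpG sites in 200 bases, whereas that of Psmb5 has 66.5% GC and 16 CpG sites in 182 bases.

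For contrast, 2 core genes without a peak are shown by the stretch upstream of their RefSeq TSS (GRCm38), trimmed where an annotated exon begins. Capitals mark the E2F1 7-mer GCGGGAA in Psma1 and a match to TGANNNNGC in Psmb6.
Psma1 (chr7:114276119-114276366, minus strand): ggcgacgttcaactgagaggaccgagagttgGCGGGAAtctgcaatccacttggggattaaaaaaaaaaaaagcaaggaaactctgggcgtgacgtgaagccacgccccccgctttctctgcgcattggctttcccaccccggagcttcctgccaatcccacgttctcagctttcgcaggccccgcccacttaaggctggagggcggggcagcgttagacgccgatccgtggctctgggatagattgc
Psmb6 (chr11:70525107-70525356, plus strand): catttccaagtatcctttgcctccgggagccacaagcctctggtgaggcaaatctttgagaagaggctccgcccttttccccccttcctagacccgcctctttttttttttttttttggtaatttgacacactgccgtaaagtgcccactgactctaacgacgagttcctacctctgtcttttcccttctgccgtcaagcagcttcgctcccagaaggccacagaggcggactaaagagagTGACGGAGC
The upstream stretch of Psma1, an alpha subunit, has 58.5% GC, and that of Psmb6, a catalytic beta subunit, has 51.6% GC.

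Methylated Pontin peaks lay at 15 of the 50 proteasome genes (30%, 95% Wilson interval 19.1 to 43.8). Each of the 15 genes had 1 peak, which it shared with no other proteasome gene. Among the other protein-coding genes, 3732 of 21888 (17.1%) had a peak. The interval describes the small number of genes and not an error between cultures. Other protein-coding genes with the promoter GC content of the proteasome genes, counted in bins of 5 percentage points over 500 bp on each side of the outermost TSS, had a peak in 20%, which corresponds to 10 genes of 50. The share of proteasome genes exceeded this level by 9.97 percentage points, although the level of 20% lay inside the Wilson interval of that share. This excess depended on the fold over input that a peak was required to reach. With peaks at least 8-fold over input, 6 proteasome genes kept a peak (12.0%) against 9.92% of the other protein-coding genes, and the excess at equal promoter GC was 0.390 percentage points. With the peaks at or above the median score of the list, 9 genes (18%) kept a peak against 9.99%, an excess of 6.18 points at equal GC.

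The 3 classes differed in their counts, although their intervals overlapped. Peaks lay at 4 of 19 core genes (21.1%, 8.51 to 43.3), where other genes of like promoter GC would give 3.64 genes. Peaks lay at 8 of 21 regulatory genes (38.1%, 20.8 to 59.1), where the GC-matched level was 4.26 genes. Of the 10 activator, inhibitor and assembly genes 3 had a peak (30%, 10.8 to 60.3), with a GC-matched level of 2.11 genes. The order of the classes did not hold with stricter peaks. At 8-fold over input the activator, inhibitor and assembly genes were highest (20%), above the regulatory (14.3%) and core genes (5.26%), and with peaks at or above the median score the shares were 20%, 19% and 15.8% in the same order.

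**Figure D1:**
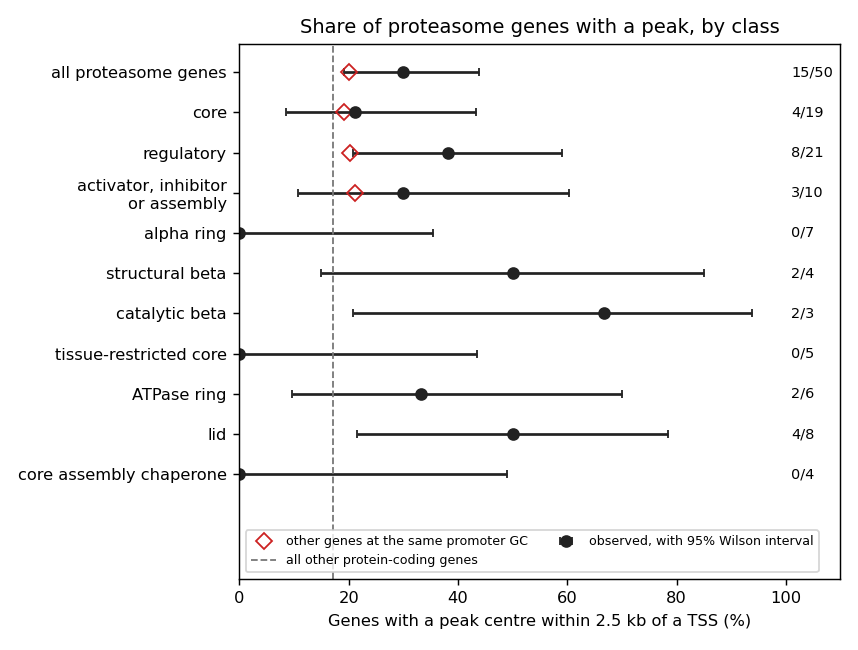
Share of genes with a methylated Pontin peak centre within 2.5 kb of a TSS, in percent, for all proteasome genes, the 3 classes and 7 narrower groups, with the number of genes at the right. Points are observed shares with 95% Wilson intervals, diamonds are other protein-coding genes at the same promoter GC, and the dashed line is the share of all other protein-coding genes (17.1%). The regulatory genes (38.1%) lie highest of the 3 classes, and the alpha ring, the tissue-restricted core subunits and the core assembly chaperones lie at 0.

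Within the core, all 4 peaks were at genes of beta subunits. None of the 7 genes of the alpha ring, Psma1 to Psma7, had a peak, which for 7 genes allows a share of up to 35.4% by the Wilson interval. That range holds the 17.1% of other protein-coding genes and the 19.2% at the promoter GC of the core genes. It also overlaps the interval of all 11 Psmb genes (15.2 to 64.6), so these counts do not set alpha apart from beta genes. Among the 3 catalytic beta subunits of the constitutive proteasome, Psmb5 (the chymotrypsin-like site) and Psmb7 (the trypsin-like site) had a peak and Psmb6 (the caspase-like site) had none, with its nearest peak 73.9 kb away. Among the 4 structural beta subunits, Psmb2 and Psmb4 had a peak and Psmb1 and Psmb3 had none. The 5 subunits that replace others in particular tissues had no peak (0%, up to 43.4%). These are Psmb8, Psmb9 and Psmb10 of the immunoproteasome, Psmb11 of the thymus and Psma8 of the testis.

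Psmb4 carried the highest signal of the proteasome genes. Its peak (chr3:94886528-94887008, coordinates in mm10) held 26.2 tags per 10000000, equal to 54.4 tags (95% Poisson interval 40.9 to 70.9, counting error only), which was above 98.2% of all peaks in the list. The peak centre lay 23 bp upstream of the nearest annotated TSS of Psmb4 and in an intron of a longer transcript. Its fold over input was 5.22, the lowest of the 15, whereas its fold over the surrounding 10 kb was 6.62, the highest. Thus the order of the peaks by tags was not their order by fold over input. Psmb5 (chr14:54617472-54617952) followed with 19 tags per 10000000 (39.5 tags, 28.1 to 53.8), with the centre 296 bp downstream of the TSS in an intron. Psmb7 (chr2:38643946-38644426) had 16.4 tags per 10000000, 99 bp upstream of the TSS, and was 21.2-fold over input but 4.02-fold over its surroundings, close to the authors' limit of 4. Psmb2 (chr4:126676988-126677468) had 14.4 tags per 10000000 at 402 bp upstream, the greatest distance among the 15 genes.

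Among the regulatory genes, the lid, which is the largest group, had the most peaks. Of its 8 genes 4 had a peak (50%, 21.5 to 78.5), against 17.1% of other protein-coding genes. These were Psmd3, Psmd12, Psmd13 and Psmd14, and Psmd6, Psmd7, Psmd8 and Psmd11 had none. Only Psmd12 (8.10) reached 8-fold over input, and Psmd13 (5.76), Psmd3 (5.73) and Psmd14 (5.68) did not. Among the ATPases, Psmc1 (36.1) and Psmc5 (11.1) did, so the lid did not lead with stricter peaks. Psmd14, the deubiquitinase of the lid, had a peak (chr2:61711162-61711642) of 17.6 tags per 10000000 (36.5 tags, 25.7 to 50.5), with the centre in intergenic DNA 292 bp upstream. The other 3 lid genes, which encode structural subunits, were lower. Psmd12 (chr11:107479386-107479866) had 12.5, Psmd3 (chr11:98682581-98683061) 11.1 and Psmd13 (chr7:140882317-140882797) 8.91 tags per 10000000, and all 3 peak centres fell in a coding exon, at 49, 230 and 85 bp downstream of a TSS. The peak of Psmd13 held 18.5 tags (11.1 to 29.1) and exceeded 0.742% of all peaks, so it was among the weakest in the list.

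Of the 6 ATPases of the base, Psmc1 and Psmc5 had a peak and Psmc2, Psmc3, Psmc4 and Psmc6 had none. At Psmc5 the peak (chr11:106256038-106256518) was 124 bp downstream of the TSS, with 17.1 tags per 10000000 and an 11.1-fold excess over input. Psmc1 (chr12:100110291-100110771) had 14.0 tags per 10000000 at 316 bp downstream, and its 36.1-fold over input was the highest fold of the 15 genes. The input behind these folds may be that of starved cells or of cells in normal media, and its tag counts were not used, so the counting error of the folds over input is not given. Of the 3 base subunits without ATPase activity, Psmd1, a scaffold, had a peak (chr1:86064246-86064726) of 11.3 tags per 10000000 at 99 bp downstream, and Psmd2, the other scaffold, and Psmd4, a ubiquitin receptor, had none. Of the 3 chaperones of base assembly, which the symbol rule places among the regulatory genes, Psmd5 had a peak (chr2:34870992-34871472) of 17.1 tags per 10000000 and Psmd9 and Psmd10 had none. Psmc3ip, a recombination factor whose symbol fits the rule but whose product is not a proteasome subunit, had no peak, and without it the share of all members was 30.6%.

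Of the activator genes, Psme1, a subunit of the PA28 activator induced by interferon, and Psme3, the nuclear PA28 activator, had a peak. Psme3 (chr11:101315853-101316333) had 16.6 tags per 10000000 (34.5 tags, 23.9 to 48.1) at 120 bp upstream and was 10.8-fold over input. Psme1 (chr14:55578018-55578498) had 16.1 tags per 10000000 (33.4 tags, 23.1 to 46.8) at 102 bp upstream of its nearest TSS and was 20.9-fold over input. Psme2, which encodes the partner of Psme1 in the same ring and lies near it on chromosome 14, had no peak of its own, and the Psme1 peak was 10.3 kb from its TSS. Psme4, which encodes a large single-chain activator, and Psme2b, a short gene of 0.837 kb named for its likeness to Psme2, had none. Psmf1, which encodes the inhibitor PI31, had a peak (chr2:151741278-151741758) of 11.8 tags per 10000000 at 208 bp upstream. None of the 4 genes of core assembly chaperones, Psmg1, Psmg2, Psmg3 and Psmg4, had a peak (0%, up to 49%).

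**Figure D2:**
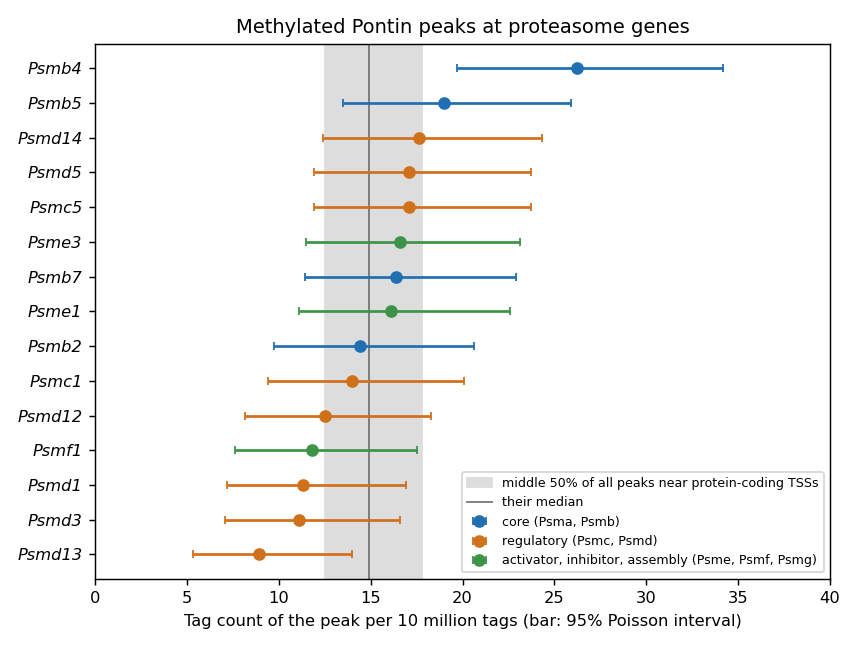
Tag count per 10000000 tags of the peak at each of the 15 proteasome genes with a peak, coloured by class, with 95% Poisson intervals that cover counting error only. The grey band is the middle 50% of the 3213 peaks near protein-coding TSSs (12.5 to 17.8) and the grey line their median (14.9). Psmb4 (26.2) lies to the right of that band with its whole interval, and the interval of Psmd13 (8.91) ends below the median.

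The proteasome peaks had signals much like those of other promoter peaks. Their median was 16.1 tags per 10000000, against 14.9 over the 3213 peaks within 2.5 kb of a protein-coding TSS and 14.2 over all 4311 peaks. Of the 15 peaks, 8 were above and 7 below the median of the 3213, and 2 lay above and 4 below the middle 50% of the 3213. The counting interval of 13 of the 15 peaks included that median. The exceptions were Psmb4 above it and Psmd13 below it. Of 105 pairs of proteasome peaks, 5 had intervals that did not overlap, and all 5 set Psmb4 against Psmd1, Psmd3, Psmd12, Psmd13 or Psmf1. For the other pairs the intervals overlapped, which does not show that their levels were alike. The same counts over the 3213 peaks are not given here, so these do not set the proteasome peaks apart from others. The median was 17.7 tags per 10000000 for the 4 core peaks, 13.2 for the 8 regulatory peaks and 16.1 for the other 3. The class with the most peaks was the one with the lowest median signal, over few peaks in each class.

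Relative to input, the proteasome peaks were lower than other promoter peaks. Their median fold over input was 7.37, against 9.10 over the 3213 peaks, and 6 of 15 (40%) reached 8-fold against 58.0% of the 3213. The 6 were Psmb7, Psmc1, Psmc5, Psmd12, Psme1 and Psme3, with Psmd12 at 8.10 just inside this limit and Psmf1 at 7.63 just outside it. At 8-fold, 1 of 19 core genes kept a peak (5.26%) and 3 of 21 regulatory genes (14.3%). Of the 8 regulatory peaks, 5 were thus between 4- and 8-fold over input. Relative to the surrounding 10 kb the peaks resembled the others, with a median of 4.93-fold against 5.01. The focus ratio, a fraction that describes how closely the tags surround the centre as from a point source, had a median of 0.632 against 0.667, and ranged from 0.521 at Psmd1 to 0.827 at Psmd3.

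**Figure D3:**
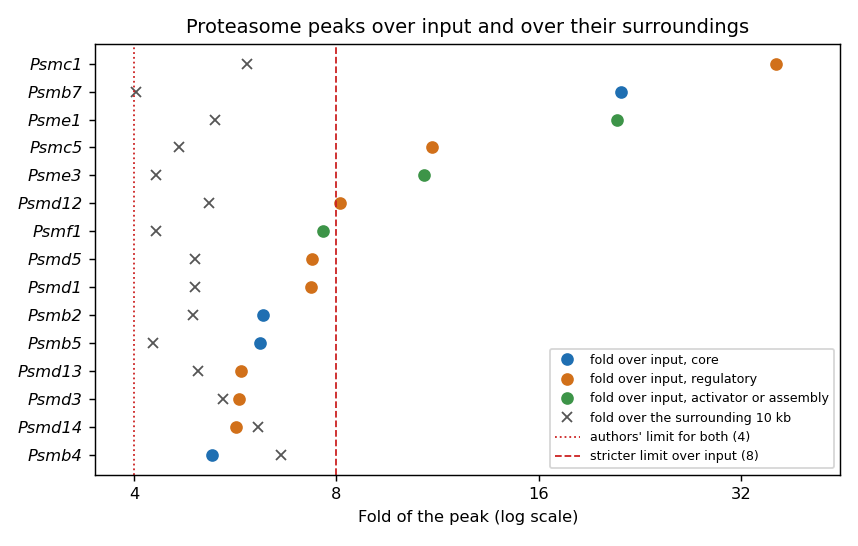
Fold of the 15 proteasome peaks over input (coloured points, by class) and over the surrounding 10 kb (crosses) on a log scale, ordered by fold over input. The dotted line is the authors' limit of 4 for both folds and the dashed line the stricter limit of 8 over input. The folds over input spread from 5.22 (Psmb4) to 36.1 (Psmc1), with 6 genes past the dashed line, and the folds over the surroundings stay between 4.02 (Psmb7) and 6.62 (Psmb4).

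The proteasome peaks lay close to start sites. All 15 centres were within 500 bp of a TSS of the gene, against 80.5% of the 3213 promoter peaks, and 10 (66.7%) were within 250 bp, against 49.8%. The median distance was 124 bp, against 252 bp to the nearest protein-coding TSS for the 3213 peaks. The latter is measured to the nearest of all genes and the former to the proteasome gene itself. Of the 15 centres 8 lay upstream (53.3%) and 7 downstream (46.7%). This split was near that of the 3213 promoter peaks (51.9% upstream and 48.0% downstream). The 7 downstream were Psmb5 and 6 regulatory genes (Psmc1, Psmc5, Psmd1, Psmd3, Psmd12 and Psmd13). At the centre, the annotation gave an intron of the gene in 6 cases (Psmb4, Psmb5, Psmc1, Psmc5, Psme1 and Psmf1), intergenic DNA in 4 (Psmb2, Psmb7, Psmd14 and Psme3), a coding exon in 3 and an exon part not marked as coding in 2 (Psmd1 and Psmd5). The shares of these features over the 3213 peaks are not given here, so the counts describe the 15 peaks only. Most of the 15 genes have several annotated start sites, with a median of 5, and the distances refer to the nearest of them. For Psmd5 and Psmf1 the peak is at an inner start site. The outermost TSS lies 3736 bp away for Psmd5 and 2668 bp away for Psmf1, and with that TSS alone 13 genes (26.0%) had a peak, against 15.7% of other genes.

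**Figure D4:**
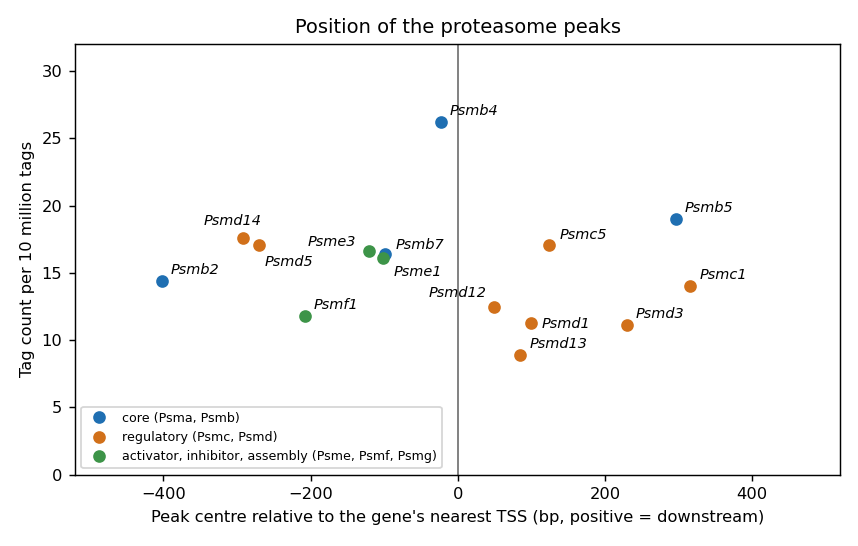
Peak centre relative to the nearest TSS of the gene in bp (positive values are downstream) against tag count per 10000000 tags for the 15 proteasome peaks, coloured by class. All points lie between 402 bp upstream (Psmb2) and 316 bp downstream (Psmc1), and the activator and inhibitor peaks are upstream.

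The limit of 2.5 kb did not decide the membership. From 402 bp, the farthest peak inside, to 3721 bp, the nearest outside, no proteasome gene had a peak. The nearest outside was Psmb11, a thymus-specific gene that lies near Psmb5 on chromosome 14 and is 3721 bp from the Psmb5 peak. The next were Psme2 at 10.3 kb, Psmd4 and Psmc3, both at 12.7 kb, and Psma2 at 13.6 kb. Of the 35 genes without a peak, 34 had none within 10 kb and 23 had none within 50 kb. Regions that missed the authors' limits on tags and folds are not in the list, so that weaker binding at these genes was not detectable.

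In 2 cases the peak was shared with a divergent gene. The Psmc5 peak was 199 bp from the TSS of Ftsj3, an RNA methyltransferase of ribosome biogenesis, and the Psmd13 peak was 248 bp from the TSS of Sirt3, a mitochondrial deacetylase, both transcribed from the opposite strand. In both cases the proteasome TSS was the nearer. Which gene of such a pair the signal belongs to cannot be told apart by distance. A divergent protein-coding neighbour within 1 kb was no more frequent at genes with a peak (2 of 15) than at those without (8 of 35, among them Psmb1 with Tbp and Psmd10 with the autophagy gene Atg4a). Counting each peak only for the gene with the nearest TSS left all 15 genes with a peak and 13.4% of other genes.

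Promoter composition did not separate proteasome genes with a peak from those without. The median promoter GC content was 55.4% in both, with a range of 47.9 to 63.3% for the 15 and 45.4 to 72.8% for the 35. Among other protein-coding genes the medians were 58.5% with a peak and 53.6% without. The observed over expected CpG ratio had a median of 0.717 with a peak and 0.685 without, against 0.756 and 0.453 among other genes. The number of annotated start sites had a median of 5 in both groups of proteasome genes. Among other genes the median was 5 with a peak and 3 without. Proteasome genes with a peak were longer, with a median of 16.7 kb against 10.1 kb, but the ranges of 2.87 to 88.7 kb and 0.837 to 109 kb overlapped almost wholly. Other genes with a peak were also longer, with a median of 24.4 kb against 15.9 kb. No test was made of these differences. When matched on the CpG ratio in place of GC content, other genes had a peak in 23.2%, and the excess of the proteasome genes was 6.80 percentage points. The level of 23.2% lay inside the Wilson interval of the proteasome genes (19.1 to 43.8).

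**Figure D5:**
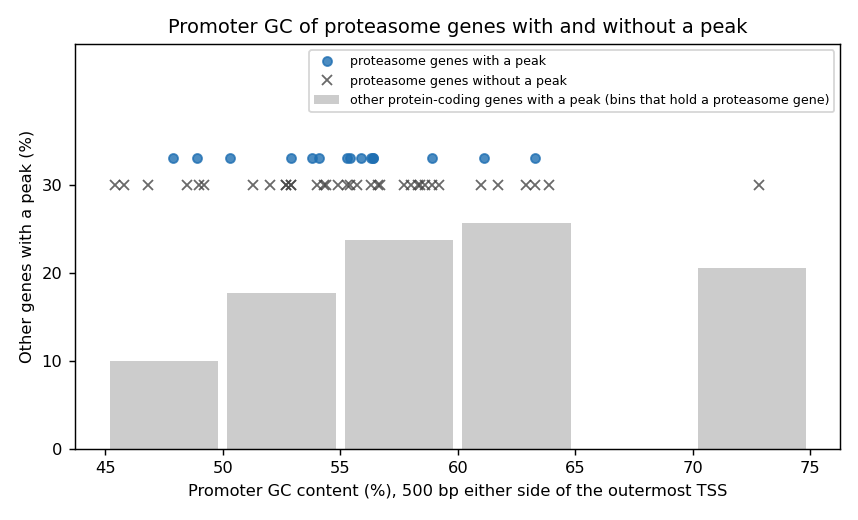
Promoter GC content in percent of the proteasome genes with a peak (upper row of points) and without one (lower row of crosses), above bars that give the percent of other protein-coding genes with a peak in each 5-point GC bin that holds a proteasome gene; the height of the point rows has no scale. The points (47.9 to 63.3%) lie within the range of the crosses (45.4 to 72.8%), and the bars rise from 9.95% at 45 to 50% GC to 25.7% at 60 to 65% GC and stand at 20.6% at 70 to 75% GC.

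Proteasome genes are known to respond together to the transcription factor Nfe2l1, which binds antioxidant response elements, so the central 200 bp of each peak and the 250 bp before to 50 bp after each RefSeq TSS were searched on both strands. The form TGANNNNGC was present in 6 of 15 proteasome peaks (Psmb4, Psmb5, Psmc1, Psmc5, Psmd1 and Psmd13) and in 26.8% of the 3213 promoter peaks. In promoters it was present at 24 of the 42 proteasome genes in the RefSeq table (45 entries), against 41.7% of 20150 promoters of that length. Here and for the motifs below, the proteasome share counts genes, some with several entries, and the other share counts entries, so the units differ. The 20150 promoters were also not matched to the proteasome genes on GC content or CpG ratio. These promoter shares therefore do not set the proteasome genes apart from others of like composition. TGANNNNGC was found at 6 of 12 genes with a peak and at 18 of 30 without, so that this form was no more frequent where methylated Pontin had a peak. The strict form TGACTCAGC was in 0 of 15 peaks and 0 of 42 genes, and in 0.427% of all promoters. Psma8, Psmb1, Psmb2, Psmb7, Psmc3, Psmd3, Psmd7 and Psmg2 are not in the promoter table.

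The FOXO3a 7-mer GTAAACA and the TFEB 7-mer TCACGTG, sequences of factors that drive autophagy and lysosome genes, were in none of the 15 proteasome peaks and in none of the 42 genes' promoters. They are rare at this length, in 1.74% and 1.68% of the 3213 promoter peaks and in 2.96% and 4.51% of all promoters, so that 15 peaks are too few to show a difference. The E2F1 7-mer was in no proteasome peak, against 4.79% of the 3213 promoter peaks, and in the promoters of 5 genes (Psma1, Psmc2, Psmc4, Psmd12 and Psme1), against 6.13% of all promoters. The CREB1 7-mer TGACGTC was in the peak of Psmd5 and in the promoter of Psmb5, where it overlaps a match to TGANNNNGC, against 0.778% of the 3213 promoter peaks and 3.97% of all promoters. The YY1 core AAGATGG was in the peaks of Psmc5 and Psmd12, 2 of 15 against 4.92% of the 3213 promoter peaks, and in the promoters of 8 genes, against 6.30% of all promoters. The ETS core CCGGAAG was in the promoters of 15 of 42 genes, against 11.9% of all promoters, but in 1 of 15 peaks, that of Psme3, whose match is shown in capitals above, against 5.29% of the 3213 promoter peaks. It was found at 4 of 12 genes with a peak and 11 of 30 without. A match gives the letters only and says nothing of whether a factor was bound.

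The proteasome genes with a peak were spread over the genome. They lay on chromosomes 1, 2, 3, 4, 7, 11, 12 and 14, with 4 of 6 genes on chromosome 2 (Psmb7, Psmd5, Psmd14 and Psmf1) and 4 of 10 on chromosome 11 (Psmc5, Psmd3, Psmd12 and Psme3). Other protein-coding genes had a peak in 18.7% on chromosome 2 and in 19.1% on chromosome 11. On chromosomes 5 and 17, 3 genes each had none, among them Psmb8 and Psmb9 in the major histocompatibility region. Other protein-coding genes had a peak in 20.4% and 17.8% there, so 3 genes are too few to show a difference. The proteasome genes on chromosomes 8, 9, 13, 16, 18 and X also had none.

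Other genes of the ubiquitin and proteasome pathway had peaks at a share like that of the proteasome genes. Of 28 such genes 10 had a peak (35.7%, 20.7 to 54.2), against 17.1% of other protein-coding genes. Among cofactors these were Usp14, a deubiquitinase bound to the proteasome, with 14.2 tags per 10000000, and Txnl1, a thioredoxin-like proteasome protein, with 23.6 (2 of 9). Of the 4 genes that control proteasome gene expression, Nfe2l1 itself (15.7) and Ddi2 (12.0), the protease that activates it, had a peak, and Nfe2l2 and Ngly1 had none. Of the shuttle and p97 genes, Rad23b had a peak of 19.7 tags per 10000000, Ubqln1 one of 19 and Ufd1 one of 14.2. The fold over input at Rad23b was 51.1, higher than at any of the proteasome genes. Among the genes for ubiquitin and its activating enzymes, Ubb had a peak of 15.7 tags per 10000000. Genes of other large complexes had higher shares, with 42 of 77 cytoplasmic ribosomal protein genes (54.5%, 43.5 to 65.2) and 5 of 9 chaperonin genes (55.6%, 26.7 to 81.1). The ribosomal interval begins just below 43.8%, the upper end of that of the proteasome genes. The chaperonin interval holds the 30% of the proteasome genes, so 9 chaperonin genes are too few to set them apart. No level at equal promoter GC is given for either complex.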

How the data were processed

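Methylated Pontin and input chromatin of MEFs were sequenced, with 1 library per condition. The authors aligned reads to mm10 with Bowtie2 and called peaks in mePontin_GS with HOMER 4.7.2 (submitters' processing notes and the header of the list), at an FDR of 0.001 (18 tags), with a minimum of 4-fold over the input as well as the local 10 kb, each at a Poisson p of at most 0.0001. The deposited signal is tags per 10000000, and the deposited score is HOMER's own peak score. The folds over input and local region are ratios the authors computed, and the deposited focus ratio is a fraction. The study's methods call the comparison a control input, which can mean the input of cells in normal media or input as such, and the header names it INplus, so which input library served is not settled, and the folds over input may be relative to cells in normal media. In the list, 1 column of input tags was assigned to no library and was not used, nor were the authors' p-values.

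TSSs came from GENCODE vM21 on the same build, and promoters from RefSeq (GRCm38), in which 42 of 50 members matched by symbol. Tags were recovered from the signal and the library total, with exact Poisson intervals. Shares have Wilson intervals at 95%. The level at equal GC weighted the shares of other genes by the members' 5-point bins. No test was run, since there is 1 library. Distances and weighting were tested on simulated data. Every member was named, with the 5 nearest peaks of members without one, and genes with a peak of the pathway list, of which some are not reported here. Of that list Paaf1 had no entry in the annotation. The members and lists were chosen with earlier results of these data known. Python 3.11.15, NumPy 2.4.6, SciPy 1.17.1 and pandas 2.3.3 were used. Alternatives changed distance, TSSs, fold, score, gene assignment, members and matching.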

Additional observations from a re-analysis of the deposited data

How the results depend on the processing

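The number of proteasome genes with a peak was 15 at limits of 500 bp, 1 kb and 2.5 kb, with the peak edge, with protein-coding transcripts only and with the nearest gene only, 16 at 5 kb and 13 with the outermost TSS only. The limit of 500 bp, the removal of tissue-restricted and unrelated genes and the comparison without olfactory, vomeronasal and Gm- or Rik-named genes were chosen after seeing the data. At 8-fold over input the share of proteasome genes fell to 12.0%, of other genes to 9.92%, of core genes to 5.26% and of regulatory genes to 14.3%. In the upper part of the list by score, the shares were 18% for proteasome genes, 9.99% for other genes, 15.8% for core genes and 19% for regulatory genes. The activator, inhibitor and assembly genes stood at 20% in both settings, the highest of the 3 classes. Over the 17 alternatives computed, the excess at equal GC ranged from 0.390 points at 8-fold to 14.4 points without tissue-restricted and unrelated genes (share 34.9%). All drew on the same peak list and, apart from those that dropped members, on the same 50 genes. Their shared sign is therefore no separate support. The excess was 7.63 points when the number of TSSs was matched too. The median signal stayed within the counting interval of the median peak in 5 alternatives. No paired analysis was possible because the libraries carry no replicate numbers and the conditions have 1 library each. The depth limits single peaks, since their median of 33.4 tags leaves an interval of about 23.1 to 46.8 tags.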
